A study of Homo sapiens with 23 samples.

Results

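Aminoacyl-tRNA synthetases join each amino acid to its transfer RNA, and 36 of their genes were followed through C-33A and CaSki cells that had received a microRNA mimic. The genes were taken by symbol from a list of synthetases, and all 36 were found among the 61217 genes listed in each of the authors' deposited tables. By the symbol and textbook knowledge, 18 encode enzymes of the cytosol, 16 encode enzymes of the mitochondrion, and 2 (GARS1 for glycine and KARS1 for lysine) serve both compartments from 1 gene. C-33A is an established HPV-negative cervical carcinoma line and CaSki an established HPV-positive one. Each line was transfected with a negative control or with a mimic of 1 of 3 microRNAs (miR-23b-3p, miR-124-3p, miR-218-5p), all at 100 nM, and polyA RNA was sequenced. Of the 8 groups, which together have 23 samples, 7 have 3 samples and the miR-124-3p group of C-33A has 2.

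Each tRNA must carry the right amino acid before the ribosome can use it, so cells keep 1 set of synthetases for cytosolic translation and another, encoded by separate nuclear genes, for the ribosomes inside mitochondria. Several cytosolic enzymes sit together in a large assembly, the multi-synthetase complex, while others act as free dimers. When amino acids run short or unfolded proteins build up, kinases that phosphorylate the initiation factor eIF2 slow general translation and raise the transcription factor ATF4. ATF4, paired with a C/EBP protein, binds the promoters of amino acid synthesis, transport and tRNA charging genes, and many cytosolic synthetase genes are known among its targets. Mitochondrial synthetases are not generally counted among them. MicroRNAs act on another level: the seed, the bases near their 5′ end, pairs with sites in the 3′ UTR of target messages and lowers them.

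The microRNA sequences set which messages a mimic can pair with through its seed. RefSeq (GRCh38.p14) holds miR-23b-3p at chr9:95085265-95085287 on the plus strand, and miR-218-5p at chr4:20528299-20528319 (plus strand) and chr5:168768211-168768231 (minus strand). Both are written 5′ to 3′ with the seed, bases 2 to 8, in capitals.
miR-23b-3p: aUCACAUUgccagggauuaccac
miR-218-5p: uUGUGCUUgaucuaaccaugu
The seed of miR-23b-3p had a match in the 3′ UTR (longest coding transcript, GENCODE release 29) of 1 of the 35 members that have an annotated 3′ UTR, which is 2.86% against 18.0% of 19072 genes. That member is WARS2, the mitochondrial tryptophanyl enzyme, and the match lies at chr1:119032625-119032631 on the minus strand, shown in capitals within 30 bases.
WARS2: tggcctgcagaAATGTGAttgaagtaagga
WARS2 had log2 fold changes of -0.01 in C-33A (p = 0.952) and -0.09 in CaSki (p = 0.618) after miR-23b-3p, in the authors' deposited tables. The miR-218-5p seed had a match in 0 of 35 members, against 13.6% of all genes. The 35 synthetase 3′ UTRs were short, with a median of 538 bases against 1031 for the 19072 genes. No search was made for miR-124-3p.

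Because many members are known ATF4 targets, the promoters were searched for the element that ATF4 and a C/EBP protein bind, TGATGCAA, on both strands (on the other strand it reads TTGCATCA). The window ran from 250 bases before to 50 after the start of each gene in RefSeq (GRCh38.p14), where 30 of the 36 members had an entry (not LARS1, TARS3, VARS1, YARS1, AARS2 and VARS2). The element was present in 6 of the 30 members, against 1.08% of 27305 genes (0.866% of 35116 promoters). All 6 were cytosolic genes, of 16 cytosolic or dual members with a promoter, and 0 of 14 mitochondrial members had it. Of the 12 members listed as known ATF4 targets, 10 had a promoter entry and 6 of these had the element. That list was put together with results of these data known. How far it rests on the element itself was not examined, so this count is no independent evidence. The 6 windows are shown with the match in capitals, written 5′ to 3′ on the strand of the gene.
AARS1: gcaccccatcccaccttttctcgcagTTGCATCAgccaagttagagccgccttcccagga
CARS1: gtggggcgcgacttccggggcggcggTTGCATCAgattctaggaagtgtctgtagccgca
IARS1: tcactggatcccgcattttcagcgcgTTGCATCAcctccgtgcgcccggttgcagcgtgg
MARS1: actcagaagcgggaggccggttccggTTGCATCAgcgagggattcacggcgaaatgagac
NARS1: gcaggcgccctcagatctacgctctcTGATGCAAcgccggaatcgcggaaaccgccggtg
TARS1: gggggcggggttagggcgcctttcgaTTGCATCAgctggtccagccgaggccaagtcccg
These windows lie at chr16:70289660-70289719 (minus strand) for AARS1, chr11:3057392-3057451 (minus) for CARS1, chr9:92293677-92293736 (minus) for IARS1, chr12:57488038-57488097 (plus) for MARS1, chr18:57621789-57621848 (minus) for NARS1 and chr5:33440941-33441000 (plus) for TARS1. In 5 of the 6 the match began within 15 bases of the annotated start, and in AARS1 it began at position -187. A looser form, TGATGNAA, which also takes in every TGATGCAA, added GARS1 and the mitochondrial tyrosyl gene YARS2, for 8 of 30 members against 4.46% of all genes (3.62% of promoters).
GARS1: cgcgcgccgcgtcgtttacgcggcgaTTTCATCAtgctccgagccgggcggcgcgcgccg
YARS2: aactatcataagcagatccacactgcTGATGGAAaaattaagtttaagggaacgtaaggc
The GARS1 window is chr7:30594819-30594878 (plus) and the YARS2 window chr12:32756061-32756120 (minus). A match describes the letters only and no binding was measured here.

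Before any mimic effect, the control levels showed which synthetases these cells make most of. No values per sample were at hand, so the level of the control group was computed from the average log2 CPM (counts scaled to library size) and the log2 fold change in the authors' deposited tables, and divided by transcript length to compare genes. Cytosolic enzymes were the more abundant class. Their median was 45.4 CPM per kb in C-33A and 40.9 in CaSki (16 genes each, without CARS1 and VARS1). Mitochondrial enzymes had medians of 14.0 (15 genes) and 12.3 (14 genes). In C-33A the asparaginyl enzyme NARS1 stood highest at 179 CPM per kb, followed by the isoleucyl enzyme IARS1 at 128, then the arginyl enzyme RARS1, and GARS1 at 80.9. In CaSki the threonyl enzyme TARS1 stood highest at 168 CPM per kb, followed by IARS1 at 99.9, RARS1 at 85.1 and the seryl enzyme SARS1 at 57.3. Among mitochondrial enzymes IARS2 was the highest in both lines, at 68.0 in C-33A and 41.9 CPM per kb in CaSki, and it overlapped the cytosolic range. TARS3, another cytosolic threonyl enzyme, was far lower than TARS1, at 2.12 and 2.46 CPM per kb. With CARS1, VARS1 and VARS2 left out, NARS1 had the widest contrast between lines, 3.93 times higher in C-33A. Next were the low mitochondrial prolyl enzyme PARS2, 3.50 times higher in C-33A, and TARS1, whose C-33A level was 0.311 of the CaSki level. CARS1 and VARS1, treated below, had computed C-33A levels 0.215 and 0.00297 of those in CaSki. The VARS1 level in C-33A is the lowest value of its tables. The CaSki values of both genes are set aside below, so neither ratio is read as a contrast between lines. The tables of the lines were normalized separately, so these ratios have no test. The control levels computed from the 3 tables of 1 line agree within a ratio of 1.02 in C-33A and 1.15 in CaSki, leaving out CARS1, VARS1 and VARS2. Those 3 tables share their control libraries, so this agreement checks the computation only and not the levels.

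**Figure D1:**
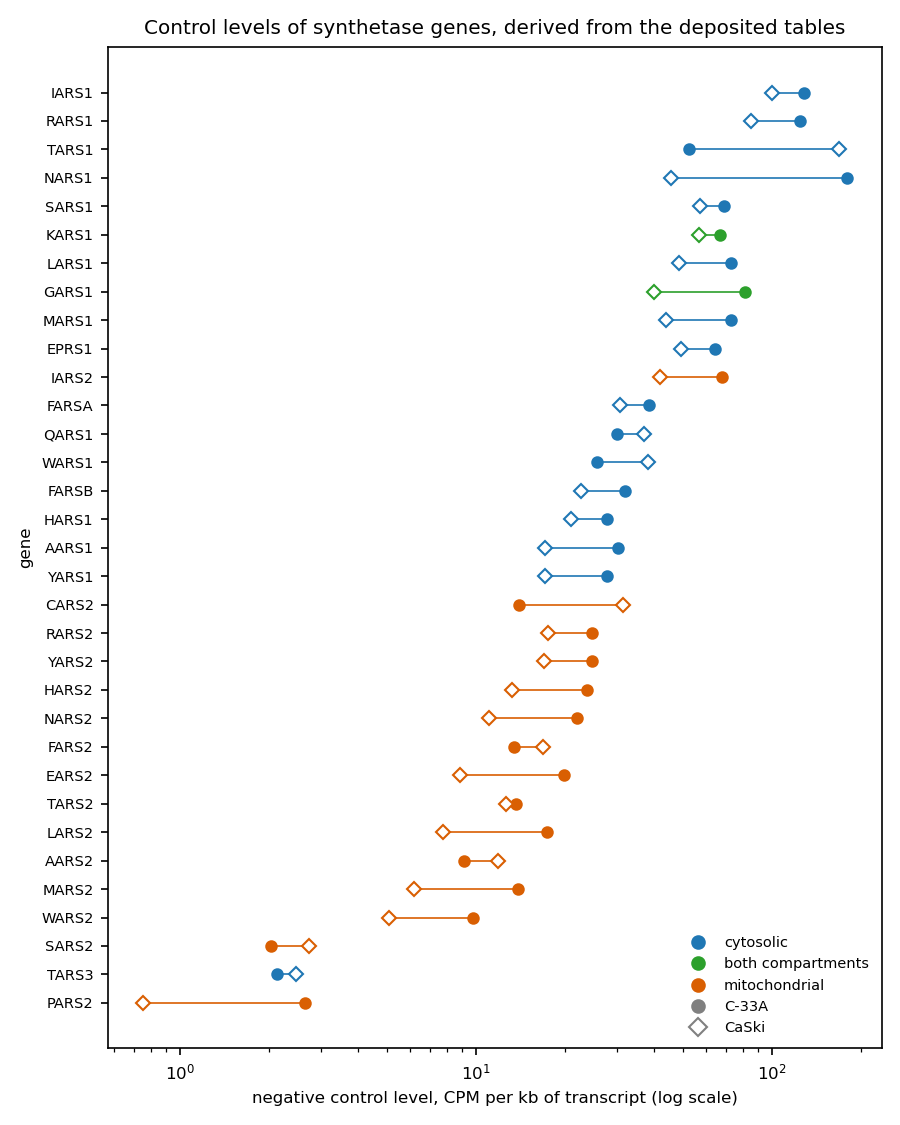
Control level of each synthetase gene in CPM per kb of transcript (log axis), computed from the authors' deposited tables; each row is 1 gene, filled circles are C-33A, open diamonds are CaSki and the line joins them. NARS1 (179 against 45.6), PARS2 (2.64 against 0.753) and TARS1 (52.4 against 168) show the widest gaps, and mitochondrial enzymes fill most of the lower rows; CARS1, VARS1 and VARS2 are left out.

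A level of 1 or more in average log2 CPM was reached by 34 of the 36 members in each table; VARS1 and VARS2 fell short in C-33A, and VARS2 and PARS2 in CaSki. VARS2, the mitochondrial valyl enzyme, was at the lowest value of all 6 of the authors' deposited tables, with a log2 fold change of 0 in each. VARS1, the cytosolic valyl enzyme, was at that lowest value in the 3 C-33A tables too, while its CaSki log2 fold changes were -13.36 for miR-23b-3p, -12.88 for miR-218-5p and -12.83 for miR-124-3p, with p from 0.224 to 0.301 in the authors' deposited tables. The lowest value means that no reads were counted for the gene, and whether its message was absent was not tested. The VARS1 level computed for the CaSki control was 27.5 CPM in the miR-124-3p table and near 0 in the mimic group. The 3 CaSki comparisons share their control libraries, and 189, 180 and 178 genes with an average log2 CPM above 0 had log2 fold changes under -8 in them, 55, 54 and 54 of these on chromosome 6, which also carries VARS1, and 0 of them passed the test. In CaSki 0 such genes had a log2 fold change above 8, and in C-33A 0 had one under -8. CARS1, the cysteinyl enzyme, showed a smaller form of this in CaSki, with log2 fold changes of -2.52, -2.06 and -2.32 (p = 0.0904, 0.148 and 0.117, mimics in that order) in the authors' deposited tables. The gene next to it, the histone chaperone NAP1L4, had -2.77, -2.29 and -2.37 in the same order. The part of single control libraries in these values was not tested, and neither gene's CaSki value is read as a response.

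For miR-23b-3p in C-33A, the question is whether the mimic moved the tRNA charging enzymes and which set. No synthetase gene passed the authors' threshold (edgeR FDR under 0.05), where 0.225% of the 12862 measured genes did. At an unadjusted p under 0.05, 8 of 34 members were past it and all 8 were higher, where 2.19% of measured genes were higher at that p and 4.68% differed in either direction. These 8 are GARS1, SARS1, MARS1, AARS1, YARS1, WARS1, TARS1 and CARS1, and each is among the 12 members listed as known ATF4 targets. That list was put together with results of these data known, so its agreement with the direction is no independent evidence. The median log2 fold change was 0.42 for the 12 listed targets, 0.05 for the 7 other cytosolic or dual members measured, 0.004 for the 15 mitochondrial members and 0.02 for all measured genes.

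GARS1, the glycyl enzyme of both compartments (chr7:30594735-30634033), went from a computed 210 CPM in the control group to 329 CPM in the mimic group. Its log2 fold change was 0.65 (SE 0.166, edgeR p = 9.67e-05, FDR 0.126) in the authors' deposited table, the lowest p of any member in C-33A. The standard error (SE) here and below was recovered from the log2 fold change and its deposited p. SARS1, the seryl enzyme (chr1:109213893-109238182), was next, with 128 CPM in the control and 192 CPM in the mimic group and a log2 fold change of 0.58 (SE 0.166, edgeR p = 0.000447, FDR 0.36) in the authors' deposited table. MARS1, the methionyl enzyme and a part of the multi-synthetase complex, went from 208 to 298 CPM, a log2 fold change of 0.52 (p = 0.00184) in the authors' deposited table. These 3 genes were higher by folds of 1.57, 1.5 and 1.43 in that order, without passing the adjusted threshold.

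The next 4 members lay between 0.38 and 0.45 on the log2 scale. AARS1, the alanyl enzyme, had 104 CPM in the control and 142 CPM in the mimic group (log2 fold change 0.45, p = 0.00647, in the authors' deposited table). The tyrosyl enzyme YARS1 went from 88.7 to 119 CPM (0.42, p = 0.0116) and the tryptophanyl enzyme WARS1 from 78.6 to 105 CPM (0.42, p = 0.0123), by the authors' deposited table. TARS1 went from 223 to 290 CPM, a log2 fold change of 0.38 (p = 0.0216) in the authors' deposited table. CARS1 had the highest log2 fold change of all, 0.73 (SE 0.324, edgeR p = 0.024), in the authors' deposited table. At 2.21 CPM in the control and 3.67 CPM in the mimic group it was also a low member, with the widest error of these genes.

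The other 4 listed ATF4 targets had smaller positive values in the authors' deposited table: 0.23 for EPRS1, which charges glutamate and proline, 0.20 for NARS1, 0.15 for IARS1 and 0.06 for the leucyl enzyme LARS1. Of the 6 members with the TGATGCAA element shown above, CARS1, MARS1, AARS1 and TARS1 are among the 8 with edgeR p under 0.05. NARS1 and IARS1 are not. GARS1, SARS1 and WARS1, also among the 8, do not have it in their windows, and neither does EPRS1. A link between the element and the log2 fold change was not tested. The 7 members of the multi-synthetase complex had a median of 0.11, with MARS1 at 0.52 and RARS1 at -0.05 as the extremes in the authors' deposited table.

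The lowest member was TARS3, with a log2 fold change of -0.43 (p = 0.0911, from 7.57 to 5.61 CPM) in the authors' deposited table, opposite in sign to TARS1. The mitochondrial threonyl and leucyl enzymes TARS2 and LARS2 and the arginyl enzyme RARS2 followed at -0.16, -0.14 and -0.09 in the authors' deposited table. The mitochondrial members ranged from -0.16 to 0.23, and 0 of 15 had an edgeR p under 0.05. Pairs of separate enzymes were matched by symbol, as in TARS1 and TARS2, here and in the comparisons below. In the 12 measured pairs the cytosolic gene had the higher log2 fold change in 12, by a median of 0.31. Among these pairs the widest gaps were 0.66 between CARS1 and CARS2, 0.57 between MARS1 and MARS2 and 0.54 between TARS1 and TARS2. The narrowest was 0.04 between RARS1 and RARS2. The pairs leave out TARS3, which was below TARS2, and also EPRS1, FARSA and FARSB. In the authors' deposited table FARSA (0.13) and FARSB (0.03) were above the mitochondrial FARS2 (-0.08). EPRS1 (0.23) was above the mitochondrial EARS2 (-0.07) and PARS2 (0.21) there.

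**Figure D2:**
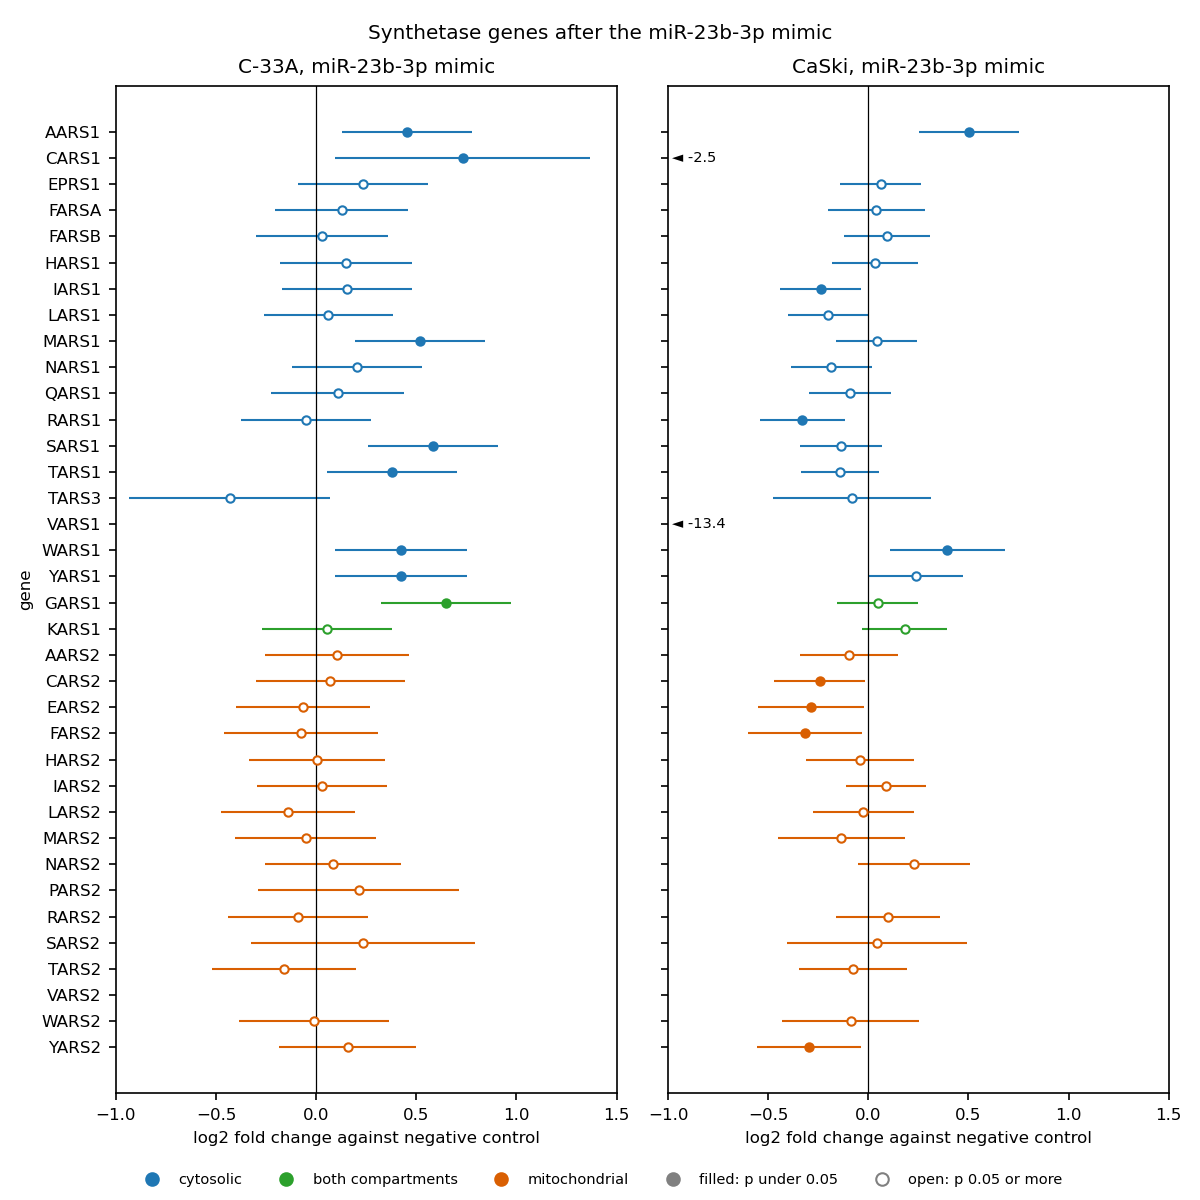
Log2 fold change of each synthetase gene after the miR-23b-3p mimic, C-33A on the left and CaSki on the right, from the authors' deposited tables; bars are 95% intervals from the recovered SE, and arrows give values beyond the left edge. In C-33A the 8 filled points (p under 0.05) are all cytosolic or dual genes on the right of 0; in CaSki AARS1 and WARS1 are on the right and 6 filled points lie on the left; genes under the level minimum have no point.

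The rest of the ATF4 pathway was set beside these values. Its list was also put together with results of these data known, so it is no independent evidence. In C-33A with miR-23b-3p, 8 of 31 measured genes of a 32-gene pathway list rose and 0 fell at edgeR FDR under 0.05. Of all measured genes 0.225% were called. At edgeR p under 0.05, 26 of the 31 were higher, where 2.19% of all measured genes were. The median log2 fold change was 0.57. In the authors' deposited table the rises included the pseudokinase TRIB3 (1.32), the glutathione-degrading enzyme CHAC1 (1.24), the transcription factors DDIT3 (1.03) and CEBPB (0.92), and the secreted stanniocalcin STC2 (1.40). ADM2 rose by 1.52, the gluconeogenic enzyme PCK2 by 0.85 and the cystine transporter subunit SLC7A11 by 0.84 in the authors' deposited table. The 12 listed synthetase targets, with a median of 0.42, thus sat below the pathway list in size and were higher in 12 of 12 cases. ATF4 itself had a log2 fold change of 0.57 (p = 0.000568, edgeR FDR 0.41) in the authors' deposited table. Of the 11 measured tRNA charging partners (complex scaffolds, tRNA export and mitochondrial amidation factors), 0 passed either edgeR threshold and the median was -0.06.

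In CaSki with miR-23b-3p 1 member passed: AARS1 rose, and 0 members fell at edgeR FDR under 0.05. The comparison as a whole had 10.4% of measured genes called and 5.89% called as higher, so 1 of 34 is no more than the background. AARS1 (chr16:70252298-70289506) went from a computed 56.1 CPM in the control group to 79.5 CPM in the mimic group. Its log2 fold change was 0.50 (SE 0.127, edgeR p = 7.81e-05, FDR 0.00733), a fold of 1.42, in the authors' deposited table. AARS1 is the only member that passed in any of the 6 comparisons.

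At unadjusted p under 0.05, 2 CaSki members were higher and 6 lower, where 16.4% and 15.3% of measured genes were. WARS1 was the other higher one, at 113 CPM in the control and 149 CPM in the mimic group, with a log2 fold change of 0.39 (p = 0.00727, edgeR FDR 0.162) in the authors' deposited table. Next came YARS1 at 0.24 (p = 0.0517) and the mitochondrial asparaginyl enzyme NARS2 at 0.23 (p = 0.111) in the authors' deposited table. RARS1, the arginyl enzyme of the multi-synthetase complex, was the lowest well-measured member, from 193 to 154 CPM, with -0.33 (SE 0.108, p = 0.00233, edgeR FDR 0.0778) in the authors' deposited table. The mitochondrial phenylalanyl enzyme FARS2 had -0.32 (p = 0.0294), the tyrosyl enzyme YARS2 -0.30 (p = 0.0248) and the glutamyl enzyme EARS2 -0.28 (p = 0.035) in the authors' deposited table. IARS1 and the mitochondrial cysteinyl enzyme CARS2 both had -0.24 (p = 0.0197 and 0.0357) in the authors' deposited table. With a trend in transcript length and GC content removed, RARS1 had -0.19, FARS2 -0.14 and CARS2 -0.08.

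Without CARS1 and VARS1, the median in CaSki was -0.02 for the 16 other cytosolic members (-0.09 with both), against -0.08 for mitochondrial members and -0.01 for all measured genes. The cytosolic enzyme had the higher log2 fold change in 5 of the 11 pairs without CARS1. The 11 listed ATF4 targets without CARS1 had a median of 0.04, with 6 higher and 5 lower, and the median with CARS1 was -0.05. In the pathway list 2 of 29 measured genes rose and 3 fell at edgeR FDR under 0.05. Of all measured genes 10.4% were called and 5.89% were called as higher. The lipoprotein receptor VLDLR rose by 0.75 and the cationic amino acid transporter SLC7A1 by 0.42, while ATF4 fell by 0.63, the repressor JDP2 by 0.63 and the proline synthesis enzyme PYCR1 by 0.54, in the authors' deposited table. Of the 11 measured tRNA charging partners 1 was called. This was AIMP2, a scaffold of the multi-synthetase complex, which fell by 0.57 (edgeR FDR 0.00322) in the authors' deposited table.

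**Figure D3:**
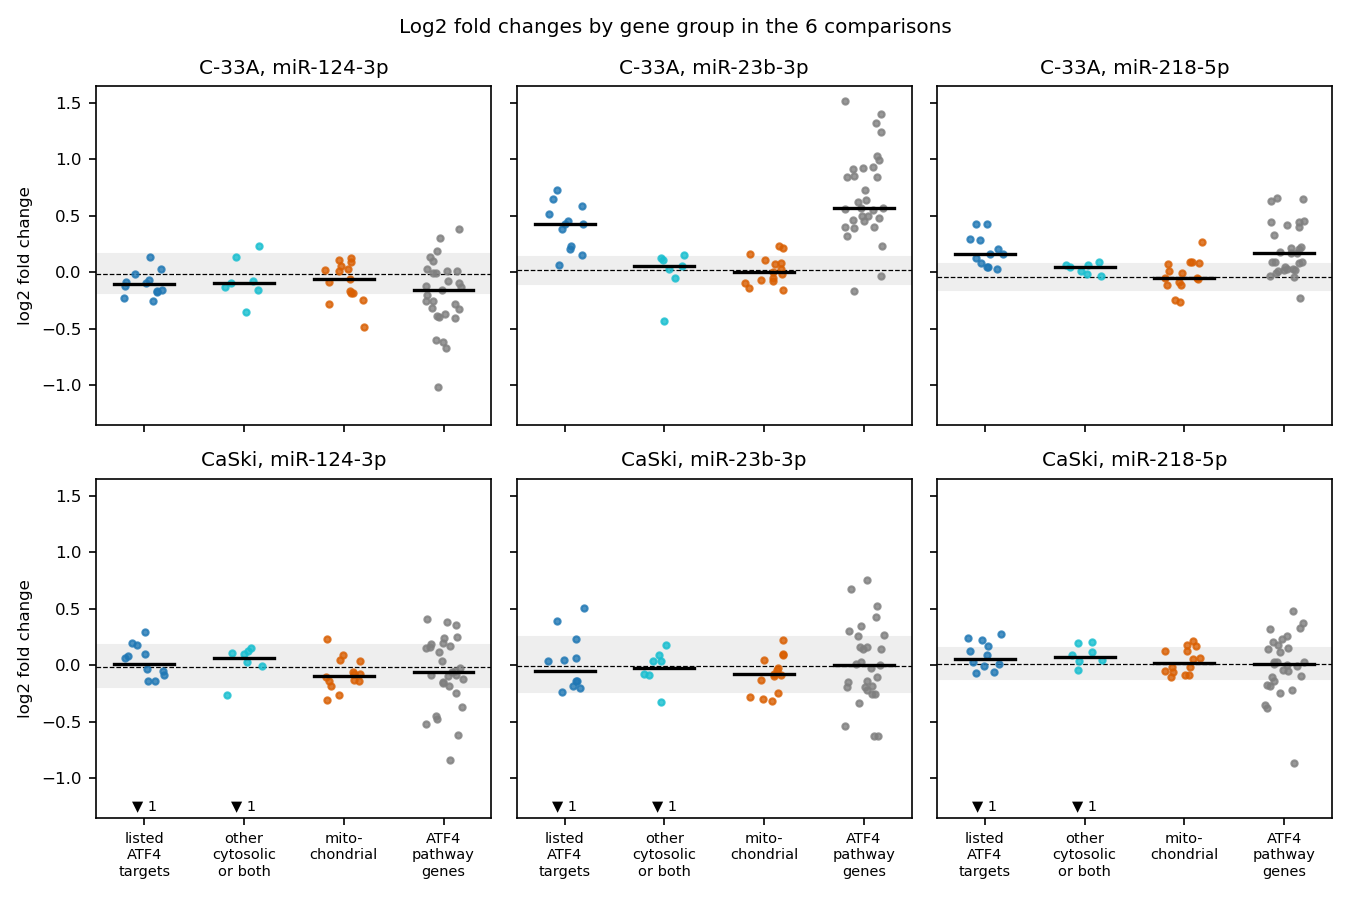
Log2 fold changes in the authors' deposited tables for 4 gene groups in each of the 6 comparisons; points are genes that reach the minimum level, thick bars the group medians, the dashed line the median and the grey band the interquartile range of all measured genes, and triangles count genes below the axis (CARS1 and VARS1, which the bars include). In C-33A with miR-23b-3p the medians of the listed ATF4 targets (0.42) and the pathway genes (0.57) lie above the band, though single genes of both groups do not. The median of the mitochondrial members (0.004) lies near the dashed line.

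The difference between lines was tested directly for each mimic, as the C-33A log2 fold change minus that of CaSki with SEs recovered from both deposited p-values. For miR-23b-3p, 1 of 33 members differed, against 2.13% of 11085 genes measured in both lines. SARS1 had 0.58 in C-33A and -0.14 in CaSki, a difference of 0.72 (95% interval 0.34 to 1.11, SE 0.197, Benjamini-Hochberg adjusted p = 0.0257) between the authors' deposited tables. The SARS1 call was lost with no filter on level (adjusted p = 0.125) and after a trend with transcript length and GC content was removed (difference 0.55, adjusted p = 0.276). At unadjusted p under 0.05, 7 of the 32 members other than CARS1 differed and all 7 were higher in C-33A, where 16.8% of genes differed and 8.6% were higher in C-33A. GARS1 differed by 0.60 (adjusted p = 0.0682), TARS1 by 0.52 (0.116), MARS1 by 0.48 (0.171) and YARS2 by 0.45 (0.262), from the authors' deposited tables. CARS1 differed by 3.25 with an SE of 1.52, which rests on the CaSki value not read here. AARS1 had log2 fold changes of 0.45 and 0.50 in the authors' deposited tables, a difference of -0.05 (95% interval -0.46 to 0.36). WARS1 had 0.42 and 0.39 there, a difference of 0.03 (-0.41 to 0.47).

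**Figure D4:**
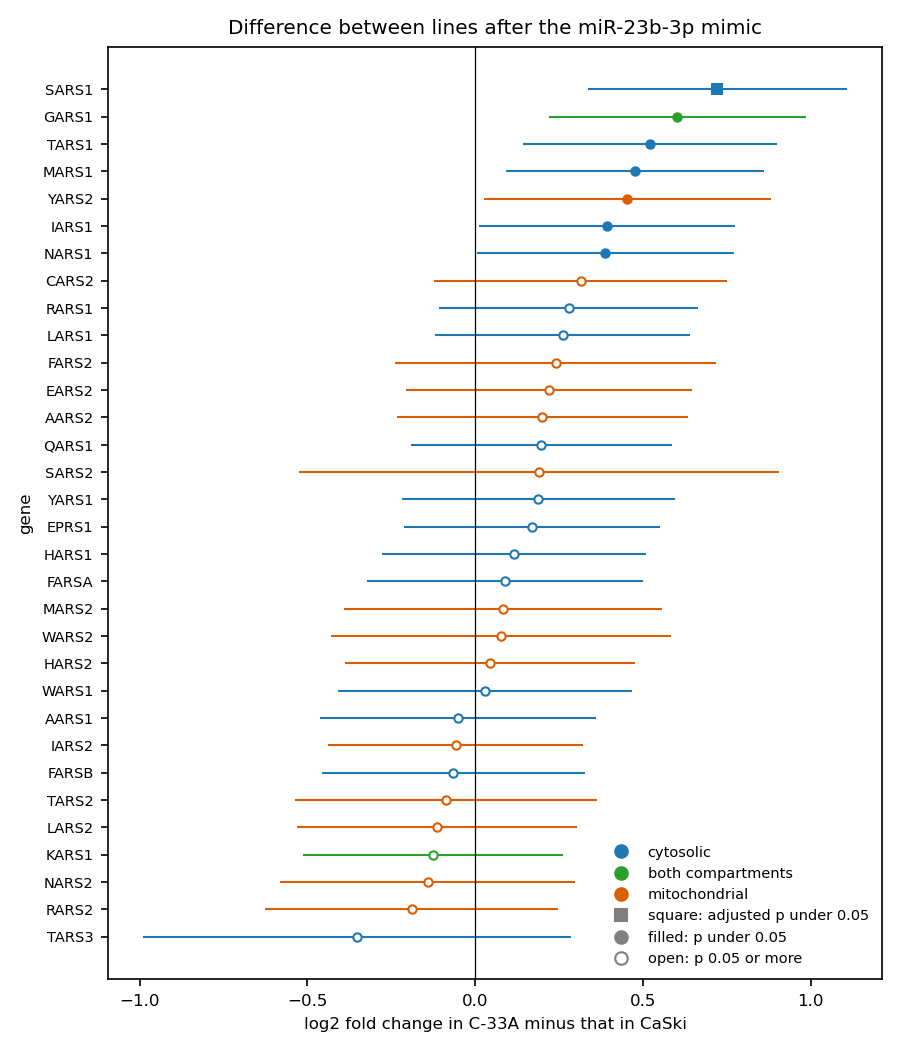
Log2 fold change after miR-23b-3p in C-33A minus that in CaSki for each synthetase gene, with 95% intervals from the recovered SEs. SARS1 (0.72, square) is the 1 gene past the adjusted threshold, and GARS1, TARS1, MARS1, YARS2, IARS1 and NARS1 (filled) have p under 0.05; CARS1 (3.25) is off the scale and VARS1 was not tested.

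After miR-124-3p in C-33A, 0 members passed the edgeR FDR threshold (0.754% of measured genes did) and 2 of 34 were lower at p under 0.05 (6.29% of genes were lower and 10.9% differed). The mitochondrial methionyl enzyme MARS2 had -0.48 (SE 0.194, p = 0.0132), from 42.1 to 30.1 CPM, and RARS1 had -0.35 (p = 0.0382), from 267 to 210 CPM, in the authors' deposited table. EARS2 and NARS1 followed at -0.28 and -0.26, while the glutaminyl enzyme QARS1 was highest at 0.23 (p = 0.179), then TARS3, AARS1 and PARS2 at 0.13 each, in the authors' deposited table. The medians were -0.09 for cytosolic and -0.06 for mitochondrial members, against -0.01 for all genes, and cytosolic enzymes were the higher in 2 of 12 pairs. TRIB3 was the 1 of 29 measured pathway genes called here, and it fell by 1.01 in the authors' deposited table. Of these 29 genes 21 were lower and 8 higher. At edgeR p under 0.05, 6 were lower and 0 higher, where 6.29% of all measured genes were lower. ATF4 itself had -0.37 (edgeR p = 0.0297) in the authors' deposited table. Of the 12 listed ATF4 targets 10 were lower and 2 higher, with a median of -0.10.

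After miR-124-3p in CaSki, 0 members passed (1.4% of measured genes did), and 1 was higher and 2 were lower at edgeR p under 0.05 (8.31% and 7.96% of genes). AARS1 had 0.29 (p = 0.0341), from 60.2 to 73.6 CPM, in the authors' deposited table. YARS2 had -0.30 (p = 0.0461) and RARS1 -0.27 (p = 0.0493) in the authors' deposited table. The mitochondrial isoleucyl enzyme IARS2 (0.23), YARS1 (0.20) and WARS1 (0.18) were the next highest, and EARS2 had -0.27 (p = 0.0745), in the authors' deposited table. Without CARS1 and VARS1 the cytosolic median was 0.05 (0.01 with both), the mitochondrial median was -0.09, and the cytosolic gene was the higher in 6 of 11 pairs. TRIB3 was again the 1 of 29 measured pathway genes called, and it fell by 0.84 in the authors' deposited table. At edgeR p under 0.05, 2 pathway genes were higher and 5 lower, where 8.31% and 7.96% of all measured genes were. For this mimic 0 of 33 members differed between lines, at the adjusted threshold or at unadjusted p under 0.05 (2.59% of genes at the latter).

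After miR-218-5p in C-33A, 0 members passed edgeR FDR under 0.05 (0.357% of measured genes did) and 1 of 34 was higher at p under 0.05 (1.4% of genes). This was GARS1, from 213 to 287 CPM, with 0.43 (SE 0.162, p = 0.00774) in the authors' deposited table. CARS1 (0.43, p = 0.153), AARS1 (0.30, p = 0.0664) and YARS1 (0.29, p = 0.0774) came next in the authors' deposited table. The lowest members were mitochondrial: WARS2 at -0.26, MARS2 at -0.25, and TARS2 and CARS2 at -0.11 each in the authors' deposited table. The 12 listed ATF4 targets were higher in 12 of 12 cases with a median of 0.16, while the cytosolic, mitochondrial and all-gene medians were 0.08, -0.05 and -0.04. The cytosolic gene was the higher in 8 of 12 pairs. Of the 29 measured genes of the pathway list 0 passed, and 7 were higher at edgeR p under 0.05, where 1.4% of all measured genes were. The 3 C-33A comparisons share the control libraries, so a direction repeated between miR-23b-3p and miR-218-5p is not independent.

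After miR-218-5p in CaSki, 0 members passed (0.115% of measured genes did), and 1 of 34 was higher at edgeR p under 0.05 (4.83% of genes). WARS1 had 0.27 (p = 0.0439), from 118 to 143 CPM, in the authors' deposited table. YARS1 (0.24), AARS1 (0.23) and SARS2, the mitochondrial seryl enzyme (0.21), came next and FARS2 was lowest among well-measured members at -0.10 in the authors' deposited table. YARS2 and CARS2 both had -0.09 there. The medians were 0.07 for cytosolic members without CARS1 and VARS1 (0.04 with both) and 0.02 for mitochondrial members, against 0.01 for all genes. The cytosolic gene was the higher in 5 of the 11 pairs without CARS1. Of the 29 measured pathway genes 0 passed the edgeR FDR threshold. Between lines 0 of 33 members differed for this mimic at either threshold, where 1.52% of genes had p under 0.05.

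Across all 6 tables, single genes showed different profiles. AARS1 had positive log2 fold changes throughout, 0.45, 0.13 and 0.30 in C-33A and 0.50, 0.29 and 0.23 in CaSki for miR-23b-3p, then miR-124-3p, then miR-218-5p, in the authors' deposited tables. RARS1 had negative values, -0.05, -0.35 and -0.03 in C-33A and -0.33, -0.27 and -0.04 in CaSki in the same order of the authors' deposited tables. With the trend in transcript length and GC content removed, RARS1 turned to 0.005 for miR-23b-3p and 0.09 for miR-218-5p in C-33A. Its lower values shrank with that trend removed, to -0.16 for miR-124-3p in C-33A and to -0.19 for miR-23b-3p and -0.15 for miR-124-3p in CaSki. The AARS1 value for miR-124-3p in C-33A was 0.04 with that trend removed, and its other 5 values lay between 0.18 and 0.47. SARS1 had 0.58 after miR-23b-3p in C-33A and lay between -0.14 and 0.21 in the other 5 of the authors' deposited tables. Mimics of 1 line share its control libraries, so these values are not independent repeats.

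Several facts of the whole series bear on these values. In C-33A, described above as a cervical carcinoma line, 0 of 6 squamous and 0 of 5 simple epithelial markers reached an average log2 CPM of 1. These markers thus do not bear out an epithelial identity. In the same line 2 of 6 fibroblast genes (COL1A2, COL3A1) and 1 of 5 leukocyte genes (PTPRC) reached that level. In CaSki all 6 and all 5 epithelial markers did, with 1 of 6 fibroblast genes and 0 of the leukocyte and endothelial ones. The degrees of freedom recovered from the authors' deposited C-33A tables, 183651 and 244868, show a spread pooled over all listed genes, while those of CaSki were 25.7 to 38.2, so errors in the lines were not estimated alike. Of 14 synthetase pseudogenes in the tables the highest average log2 CPM was 0.37, under the minimum of 1, though reads shared with near-identical copies cannot be told apart here.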

How the data were processed

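PolyA RNA was sequenced from 23 samples in 8 groups. Per the submitters' processing notes, the build was GRCh38 (hg38) and the tools were edgeR 3.36.0, featureCounts 2.0.3, STAR 2.7.10b and FastQC 0.73. What was used here is 1 table for each of 6 comparisons, with no values per sample (0 columns), so depth is unknown. For 61217 genes, the deposited columns are, per the file headers, an F score, a p-value with its FDR, and 2 log2 quantities (the fold change and the average CPM). Whether replicates were separate cultures is not in the labels. The p-values rest only on the spread of these samples, and that spread may be technical. In C-33A it was pooled over all listed genes, so a C-33A p-value does not measure the spread of its own gene. The tests between lines carry the same limit. The strand setting of the counting was not given in the sources used here.

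A gene was called at a deposited FDR under 0.05 and counted as measured if its average log2 CPM was at least 1. The design foresaw a fit to counts only if values per sample were at hand; the deposited statistics apply instead. SEs are the log2 fold change over the normal quantile of the deposited p-value. Differences between lines used a normal test of the subtracted log2 fold changes, Benjamini-Hochberg adjusted. Its code was run on simulated normal data, which cannot show that the normal test holds for the deposited values. Group levels follow from the deposited averages and the number of libraries. Named members were those called, the 4 highest and 4 lowest of each comparison, those differing between lines and those with a seed site; of the pathway lists, called genes. ATF4 and NAP1L4, and a few members outside that rule, were chosen after their values were seen. Members and lists were chosen with earlier results of these data known. Values without CARS1 and VARS1 were added after seeing the data. Alternatives changed the threshold, the genes adjusted over, centring and a trend with transcript length and GC content (spline, 5 degrees of freedom). Python 3.11.15, scipy 1.17.1 and statsmodels 0.14.6 were used.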

Additional observations from a re-analysis of the deposited data

Results flagged for a closer look

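SARS1, the seryl enzyme of the cytosol, stands out because its response to the miR-23b-3p mimic differed between the lines by a test of the difference itself. The C-33A log2 fold change exceeded that of CaSki by 0.72 (SE 0.197, Benjamini-Hochberg adjusted p = 0.0257 over 11085 genes). The call was lost with no filter on level (adjusted p = 0.125) and with the trend in transcript length and GC content removed (0.276), and 1 of 33 members is near the 2.13% of all genes that differed. The cause was not tested.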

How the results depend on the processing

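No paired analysis was possible because the tables hold no values per sample, and for the same reason no replicate was left out in turn. With p-values adjusted only over genes whose average log2 CPM was at least 1, the members called went from 0 to 1 in C-33A with miR-23b-3p (GARS1, adjusted p = 0.0266) and from 1 to 3 in CaSki with miR-23b-3p, where RARS1 (adjusted p = 0.0186) and WARS1 (0.0414) joined AARS1. In that CaSki comparison an FDR threshold of 0.1 gave 2 calls, AARS1 and RARS1. Removing the trend with transcript length and GC content gave 3 there, with IARS1 (adjusted p = 0.0192) and LARS1 (0.049984). AARS1 remained called under all of these, with adjusted p from 0.00162 to 0.00733. Between lines after miR-23b-3p, the members that differed went from 1 to 0 with no filter on level and to 0 with the trend removed, and to 2 (SARS1 and GARS1, adjusted p = 0.0152 and 0.0495) with SEs from the F score, an alternative chosen after seeing the data. Centring on the median left 1 call in that CaSki comparison and 1 difference between lines; the other counts were 0 in both settings, which says nothing about stability. All 48 recomputed medians of cytosolic and mitochondrial members moved by less than the median SE of their members, though that SE is wide beside them; mitochondrial medians lie near 0 and some changed sign, as in C-33A with miR-23b-3p (0.004, or -0.03 with the trend removed). The unknown depth of the libraries limits what low members such as CARS1, TARS3, SARS2 and PARS2 can show.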
